A study of Mus musculus with 16 samples.

Results

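The forkhead genes encode transcription factors that share a winged-helix DNA-binding domain, and 42 of them, listed by symbol, were examined among 21631 protein-coding genes on the mouse autosomes and X. The measurement was the repressive histone mark H3K27me3 in CCN6KOT cells, a mouse breast cancer cell line of spindle metaplastic type that lacks CCN6 in every sample. Control cells carried a control lentivirus (PPGS in the labels) and dnTCF4 cells carried a lentivirus for dnTCF4, a dominant negative form of TCF4, a DNA-binding partner of beta-catenin in Wnt signalling. Both groups were treated with puromycin. Each group had 4 libraries for H3K27me3. Another 8 IgG libraries were not analysed here. All libraries came from 1 cell line, and the labels do not say whether the numbered libraries of a group came from separate cultures. Any p-value below thus reflects variation among libraries that could be technical only.

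Forkhead factors act at many stages of development and adult life. Members of the A, B, C, D, E, F, H, I, L and Q classes pattern embryonic tissues, whereas the O class responds to insulin signalling, FOXM1 drives genes of mitosis and the P class acts in the lung, brain and T cells. In the breast, FOXA1 opens chromatin for the oestrogen receptor in luminal cells. H3K27me3 is written by EZH2 in Polycomb repressive complex 2, and it often covers CpG-rich promoters of developmental regulators that a cell keeps silent.

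A gene was called marked in a library when a peak of that library overlapped its gene body, extended by 2 kb on both sides, by at least 1 base. The covered share is the percentage of this extended gene body under peaks. The deposited peak lists were of very unequal length, at 426, 738, 54070 and 22745 peaks for control 1 to 4 and 21492, 191, 4885 and 1838 peaks for dnTCF4 1 to 4. They cover 0.129 Mb (dnTCF4 2) to 52.7 Mb (control 3). The lists hold no read counts, so sequencing depth is unknown, and an absent peak does not show an absent mark.

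Peaks lay beside the promoters of a few forkhead genes, so the promoters of the marked genes with a reference entry and more than 1 marked library are printed first. Each window holds the 300 bases from 250 before to 50 after the start site, 5′ to 3′, from RefSeq on GRCm38.p6, the build that mm10 corresponds to. Capitals mark each CG dinucleotide. Foxi3, an ectodermal factor of teeth and hair, lies at chr6:70956356-70956655 (plus strand) with 31 CG. Foxl2, the factor that keeps granulosa cell identity in the ovary, lies at chr9:98955357-98955656 (plus strand) with 27 CG. Foxn4, a factor of retinal and spinal interneurons, has its entry at chr5:114273712-114274011 (minus strand) with 22 CG. That entry lies inside the Foxn4 gene body, whose upstream end is at 114274418.
Foxi3: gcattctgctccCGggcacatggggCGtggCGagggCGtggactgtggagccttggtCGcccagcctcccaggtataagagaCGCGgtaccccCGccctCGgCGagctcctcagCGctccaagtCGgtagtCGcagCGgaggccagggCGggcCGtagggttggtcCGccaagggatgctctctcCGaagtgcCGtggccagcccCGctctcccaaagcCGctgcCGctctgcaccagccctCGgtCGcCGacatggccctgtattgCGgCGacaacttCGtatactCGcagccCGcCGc
Foxl2: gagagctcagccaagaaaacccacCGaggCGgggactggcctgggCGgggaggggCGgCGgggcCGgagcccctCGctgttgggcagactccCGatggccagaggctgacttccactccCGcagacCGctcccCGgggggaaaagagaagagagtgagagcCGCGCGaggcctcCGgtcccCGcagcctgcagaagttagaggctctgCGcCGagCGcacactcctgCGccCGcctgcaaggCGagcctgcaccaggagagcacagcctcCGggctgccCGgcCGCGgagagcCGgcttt
Foxn4: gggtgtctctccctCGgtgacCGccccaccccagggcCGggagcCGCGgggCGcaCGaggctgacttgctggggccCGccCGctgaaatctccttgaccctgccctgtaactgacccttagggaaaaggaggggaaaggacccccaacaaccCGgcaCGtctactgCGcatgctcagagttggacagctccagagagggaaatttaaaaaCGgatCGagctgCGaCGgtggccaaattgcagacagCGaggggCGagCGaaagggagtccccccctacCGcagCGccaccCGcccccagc
The promoters of Foxp1 and Foxn3, the longest forkhead genes without a peak in any library, follow. They hold fewer CG than most unmarked forkhead promoters, whose median is 22, and are not typical of that set. Foxp1, a regulator of B cell and lung development, has its entry at chr6:99520944-99521243 (minus strand) with 13 CG. That entry lies inside the Foxp1 gene body, whose upstream end is at 99522746. Foxn3, a forkhead repressor, has its entry at chr12:99450025-99450324 (minus strand) with 6 CG. This window lies inside the Foxn3 gene body, whose upstream end is at 99563667. It thus shows an internal start site, and the CG count at the upstream end is not given here.
Foxp1: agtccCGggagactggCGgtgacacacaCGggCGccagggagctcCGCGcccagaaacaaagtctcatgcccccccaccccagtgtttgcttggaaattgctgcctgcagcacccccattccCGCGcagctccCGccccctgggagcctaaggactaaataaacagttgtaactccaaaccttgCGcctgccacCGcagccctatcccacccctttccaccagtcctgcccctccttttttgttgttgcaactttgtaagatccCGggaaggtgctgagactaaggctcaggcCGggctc
Foxn3: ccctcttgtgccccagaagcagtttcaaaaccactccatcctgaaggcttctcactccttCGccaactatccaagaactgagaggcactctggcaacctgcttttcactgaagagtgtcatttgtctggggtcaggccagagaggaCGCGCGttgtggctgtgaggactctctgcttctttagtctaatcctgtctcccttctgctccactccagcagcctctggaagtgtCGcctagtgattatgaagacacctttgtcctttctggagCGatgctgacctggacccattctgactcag
Foxe1 and Foxb1 belong to the same marked set.

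Forkhead genes were marked about as often as other protein-coding genes. Over all 8 libraries, 9 of 42 forkhead genes (21.4%) were marked in at least 1 library, against 21.4% of the 21589 other genes. They were Foxa2, Foxb1, Foxe1, Foxi3, Foxl2, Foxn4, Foxo6, Foxp2 and Foxs1. In control 3, the longest list, 6 forkhead genes (14.3%) were marked against 20.1% of other genes. Control 4 marked 5 (11.9%) against 12.5%. The order was the other way in dnTCF4 1, with 8 (19%) against 13.7%. In dnTCF4 3 only Foxs1 was marked (2.38%), against 5.13% of other genes. The remaining lists marked no forkhead gene, where they marked 0.676% (control 1), 1.06% (control 2), 0.255% (dnTCF4 2) and 2.41% (dnTCF4 4) of other genes.

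**Figure D1:**
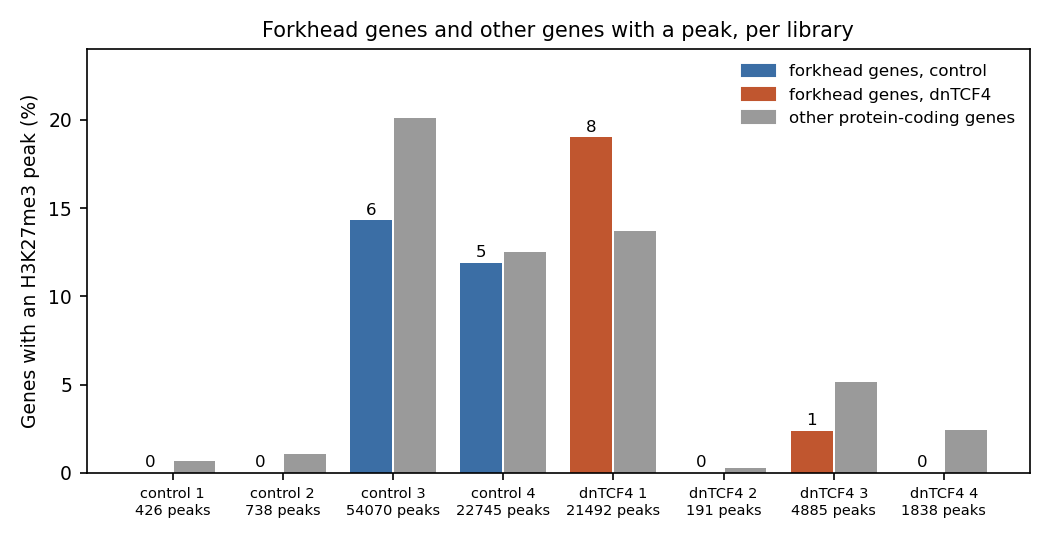
Percentage of genes (vertical axis) with an H3K27me3 peak in the gene body extended by 2 kb, for each library, with the number of peaks under its name. Coloured bars are the 42 forkhead genes, with the number marked above each bar, and grey bars are the 21589 other protein-coding genes. Forkhead genes lie below other genes in 7 libraries and above them in dnTCF4 1 (19% against 13.7%). The 2 sets are not matched for gene length.

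The forkhead genes are short, with a median gene length of 5.19 kb against 17.3 kb for other genes, and a longer gene offers more room for a peak. Among genes under 10 kb, 6 of 25 forkhead genes were marked in at least 1 library, against 14.5% of others. Between 10 and 50 kb the count was 2 of 9 against 20.4%, and at 50 kb or more it was 1 of 8 against 33.8%. By length rather than by gene, peaks of control 3 covered 0.397% of the extended forkhead gene bodies and 1.88% of those of other genes. Control 4 gave 0.101% and 0.607%, and dnTCF4 1 gave 0.189% and 0.654%. These shares pool bases over genes, so the longest genes weigh most and gene length is not corrected for. Foxp1, Foxp2 and Foxn3 have extended gene bodies of 601405, 544629 and 377587 bp. Control 3 peaks covered 0%, 0.351% and 0% of them.

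Both broad divisions of the family held marked genes. Of 23 members grouped as developmental regulators, 6 were marked in at least 1 library (Foxa2, Foxb1, Foxe1, Foxi3, Foxl2 and Foxs1). Of the 19 members of the J, K, M, N, O, P and R classes, 3 were marked (Foxn4, Foxo6 and Foxp2). These shares, 26.1% and 15.8%, lie on either side of the 21.4% of other genes, and the difference between the divisions was not tested. The division is coarse, since Foxn4 and Foxp2 also act in development.

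Foxi3 reached the highest covered share of any forkhead gene in any library. Its covered share was 0%, 0%, 35.6% and 8.88% in control 1 to 4, and 6.74%, 0%, 0% and 0% in dnTCF4 1 to 4. The groups overlapped, because control 1 and control 2 were at 0 and dnTCF4 1 was not. The means were 11.1% ± 16.8 (SD, n = 4) and 1.68% ± 3.37 (SD, n = 4), a difference below the spread (exact permutation test, two-sided, p = 0.429, adjusted p = 1). The peaks lay on both sides of the Foxi3 promoter printed above and not over it. On the upstream side, peaks of control 3, control 4 and dnTCF4 1 fell within chr6:70952073-70956221 and shared 813 bases, with midpoints at -2.46, -2.21 and -2.17 kb from the start site (negative is upstream). Inside the gene, control 3 and control 4 had a further peak, with midpoints 1.76 and 1.52 kb after the start site, and dnTCF4 1 had none there.

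Foxe1, a thyroid and palate factor, had covered shares of 0%, 0%, 18.0% and 5.94% in control 1 to 4, and 8.58%, 0%, 0% and 0% in dnTCF4 1 to 4. The group means were 5.99% ± 8.49 and 2.14% ± 4.29 (SD, n = 4 each; exact permutation p = 0.714, adjusted p = 1). The same 3 libraries as at Foxi3 were above 0, and the groups overlapped. No peak reached the Foxe1 gene body itself. One side held a region at chr4:46341207-46342201 with peaks of control 3, control 4 and dnTCF4 1 that shared 731 bases, under which the annotation also places the long noncoding RNA Gm12446. The other side held a region at chr4:46346751-46347296 with peaks of control 3 and dnTCF4 1.

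Foxl2 had covered shares of 0%, 0%, 14.4% and 6.01% in control 1 to 4, and 0.89%, 0%, 0% and 0% in dnTCF4 1 to 4. The means were 5.09% ± 6.80 and 0.222% ± 0.445 (SD, n = 4 each; exact permutation p = 0.429, adjusted p = 1), again with overlapping groups. Upstream of the printed promoter, control 3 and control 4 had peaks centred at -1.63 and -1.80 kb from the start site, under the long noncoding RNA gene Foxl2os. The dnTCF4 1 peak lay elsewhere, 4.62 kb after the start site, where control 3 also had one.

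Foxb1, a factor of the hypothalamus and spinal cord, had covered shares of 0%, 0%, 8.03% and 4.66% in control 1 to 4, and 6.64%, 0%, 0% and 0% in dnTCF4 1 to 4. The means were 3.17% ± 3.92 and 1.66% ± 3.32 (SD, n = 4 each; exact permutation p = 0.714, adjusted p = 1). Control 3, control 4 and dnTCF4 1 were again the libraries above 0. At the low-coordinate end of Foxb1, at chr9:69757562-69758199, a control 3 peak inside the gene and a dnTCF4 1 peak across the end had 255 bases in common. The control 4 peak was separate, centred at -1.19 kb from that end, outside the gene. A second control 3 peak on the far side also lay under the long noncoding RNA B230323A14Rik.

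Foxn4 had covered shares of 0%, 0%, 7.94% and 2.37% in control 1 to 4, and 3.85%, 0%, 0% and 0% in dnTCF4 1 to 4. The means were 2.58% ± 3.75 and 0.962% ± 1.92 (SD, n = 4 each; exact permutation p = 0.714, adjusted p = 1). The groups overlapped here too, with the same 3 libraries above 0. Upstream of the printed promoter, control 3 had the widest peak at any forkhead gene, 6528 bp at chr5:114274924-114281451. The same stretch held shorter peaks of control 4 and of all but 1 of the dnTCF4 libraries, though those of dnTCF4 3 and dnTCF4 4 lay beyond the 2 kb limit. Inside the gene, control 3 and control 4 shared a small peak of 209 and 206 bp, centred 16 kb after the start site.

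Foxs1, a factor of pericytes and of the neural crest, showed the reverse order of groups. Its covered share was 0% in all 4 control libraries, and 22.5%, 0%, 15.3% and 0% in dnTCF4 1 to 4. The means were 0% and 9.46% ± 11.3 (SD, n = 4), and the difference did not pass the test (exact permutation p = 0.429, adjusted p = 1). Fisher's exact test on marked libraries, 0 of 4 against 2 of 4, gave p = 0.429. Only 1 forkhead gene (2.38%) had this pattern of at least 2 dnTCF4 and 0 control libraries, against 0.0556% of other genes. The pattern depended on the 2 kb limit. The nearest peaks of control 3 and control 4 lay 3.84 and 3.87 kb from the gene, and with an extension of 5 kb Foxs1 was marked in 2 libraries of each group. The dnTCF4 1 and dnTCF4 3 peaks on the high-coordinate side met over 2 bases. Of the other genes on chromosome 2, control 3 marked 24.8%, control 4 18.7%, dnTCF4 1 21.3% and dnTCF4 3 13.9%, each above the share over all chromosomes, and the part of this in the Foxs1 values was not tested.

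**Figure D2:**
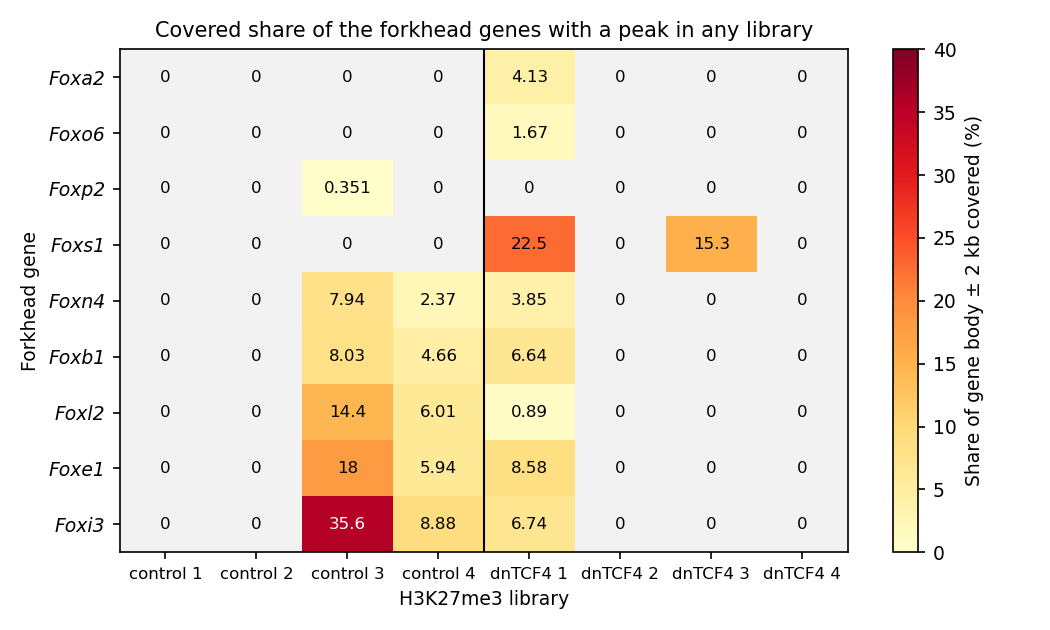
Covered share (colour and printed value, percent of the gene body extended by 2 kb) for the 9 forkhead genes with a peak in any library, in rows, and the 8 libraries, in columns. The black line separates control from dnTCF4 libraries. Values above 0 stand in control 3, control 4, dnTCF4 1 and, for Foxs1, dnTCF4 3, and Foxi3 in control 3 is the highest at 35.6%.

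The other marked genes had peaks within the 2 kb limit in a single library. Foxa2, a factor of endoderm and floor plate, had a covered share of 4.13% in dnTCF4 1, from 1 peak of 334 bp centred at -0.516 kb from the start site. Foxo6, the O class member of the brain, had 1.67% in dnTCF4 1 from a peak of 403 bp inside the gene. Foxp2, the P class member tied to speech circuits, had 0.351% in control 3 from 6 small peaks of 189 to 648 bp, 5 of them inside the gene.

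**Figure D3:**
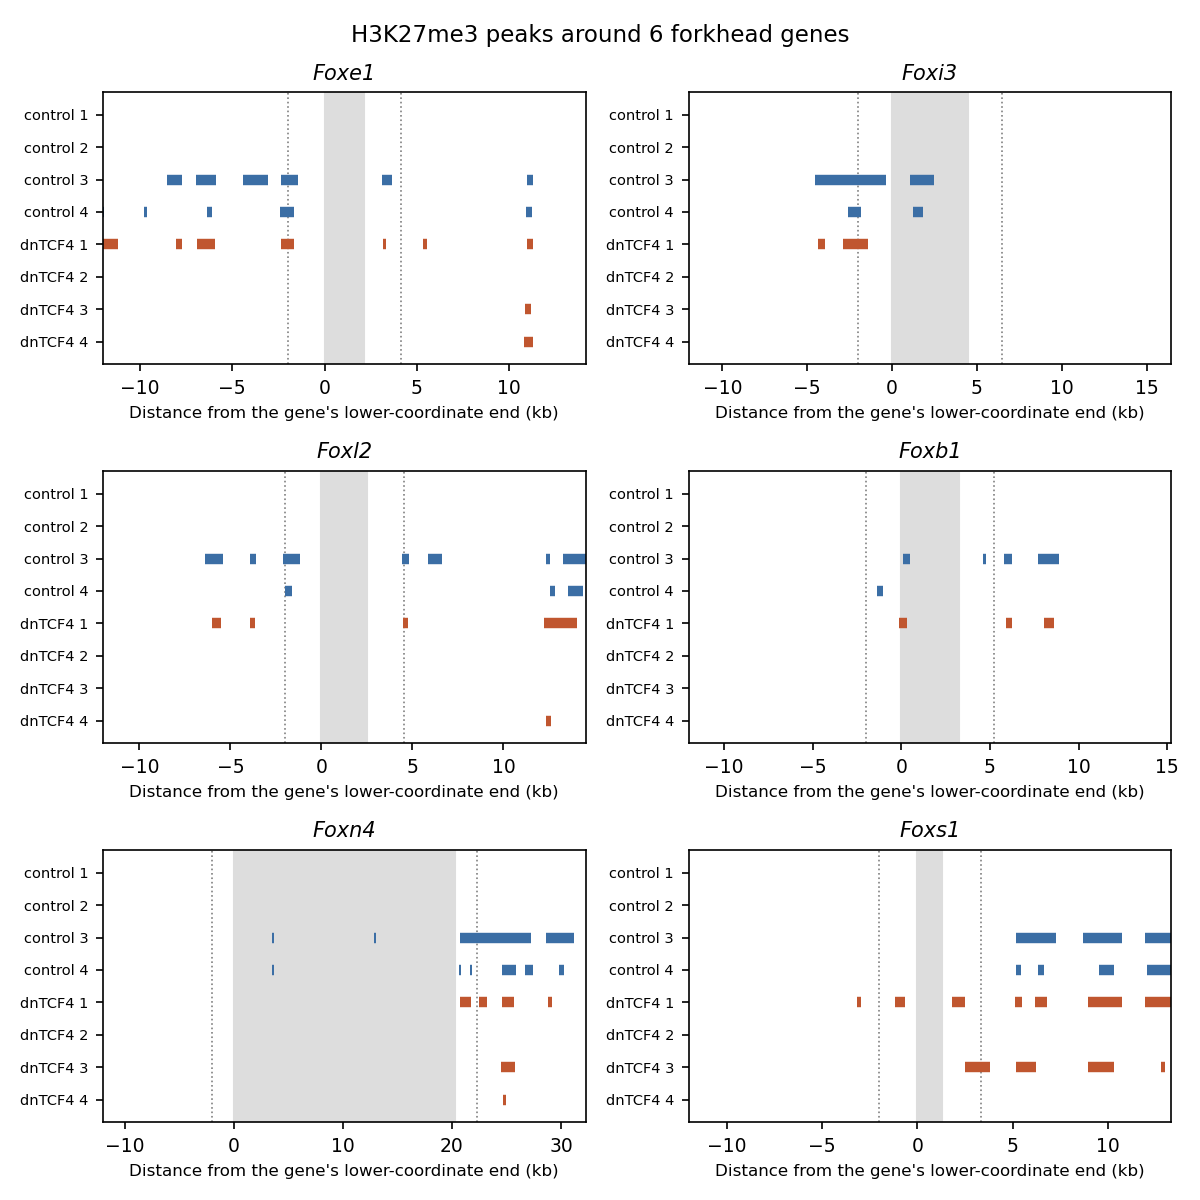
Peaks of each library (rows; blue control, orange dnTCF4) around 6 forkhead genes, with the distance in kb from the lower-coordinate end of the gene on the horizontal axis. Grey shading is the gene body and dotted lines are its 2 kb extensions. Peaks lie outside the gene bodies of Foxe1 and Foxl2, and control peaks at Foxs1 begin beyond the dotted line, 3.84 kb from the gene.

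The 36 peaks at forkhead genes had −log10 q values, as the authors deposited them, close to those of the lists as a whole. Their width ran from 168 to 6528 bp with a median of 408 bp, their fold enrichment from 2.55 to 4.16, and their −log10 q from 1.03 to 2.57. Only 4 of them reached a −log10 q of 2 and none reached 3. Their median −log10 q stood close to that of the whole list, at 1.36 against 1.42 in control 3, 1.42 against 1.48 in control 4 and 1.24 against 1.35 in dnTCF4 1. Their median width was below that of the whole list in control 3 (402 against 595 bp) and control 4 (364 against 471 bp). In dnTCF4 1 it was 506 against 485 bp, and the 1 peak of dnTCF4 3 had 1285 bp against a list median of 400 bp. The midpoints of 13 peaks lay inside the gene.

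No forkhead gene and no other gene passed a test between the groups. Fisher's exact test on the number of marked libraries called 0 of 21631 genes (0%) at an adjusted p under 0.05. Without adjustment the number under 0.05 was also 0, and the lowest p was 0.1429. The exact permutation test of covered share called 0 of 4626 genes with a peak (0%), with 1 gene at an unadjusted p under 0.05. With 70 assignments of 8 libraries, the smallest p is 0.0286, so a gene that stood alone at it could not pass the adjustment, and the counts of 0 say little about any single gene. Foxb1, Foxe1, Foxi3, Foxl2 and Foxn4 were each marked in 2 control libraries and 1 dnTCF4 library. At least 2 control libraries and 1 dnTCF4 library marked 5 forkhead genes (11.9%) against 10.2% of other genes. No forkhead gene was marked in at least 2 libraries of both groups, against 5.03% of other genes, and none in at least 2 control and 0 dnTCF4 libraries, against 2.01%. Among marked genes, the median difference in covered share, dnTCF4 minus control, was -1.51 percentage points for the 9 forkhead genes and -1.03 for the 4617 others. Over all 42 forkhead genes and over all other genes it was 0.

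Peaks over the promoter window itself were rare for all genes, and none was found at a forkhead gene. Of the 42 genes, 27 had a promoter entry in the RefSeq table, and 0 of those 27 windows of 300 bases overlapped a peak in any library. Among the other 17247 promoters, control 3 overlapped 1.68%, control 4 overlapped 0.551% and dnTCF4 1 overlapped 0.707%, so a count of 0 among 27 is not set apart from other genes. The median CG count was 24.5 in the 4 marked forkhead genes with an entry and 22 in the 23 unmarked ones, against 8 in other marked genes and 15 in other unmarked genes. In control 3 the overlapped share of other promoters fell with CG content, from 3.52% with 0 to 9 CG to 0.57%, 0.244% and 0.115% with 10 to 19, 20 to 29 and 30 or more. The forkhead recognition core TGTTTAC, searched on both strands (GTAAACA on the other), was found in 1 of 27 forkhead promoters, that of Foxa1, and in 2.96% of all 17274 promoters. A match is a run of letters only, and no binding was measured.

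**Figure D4:**
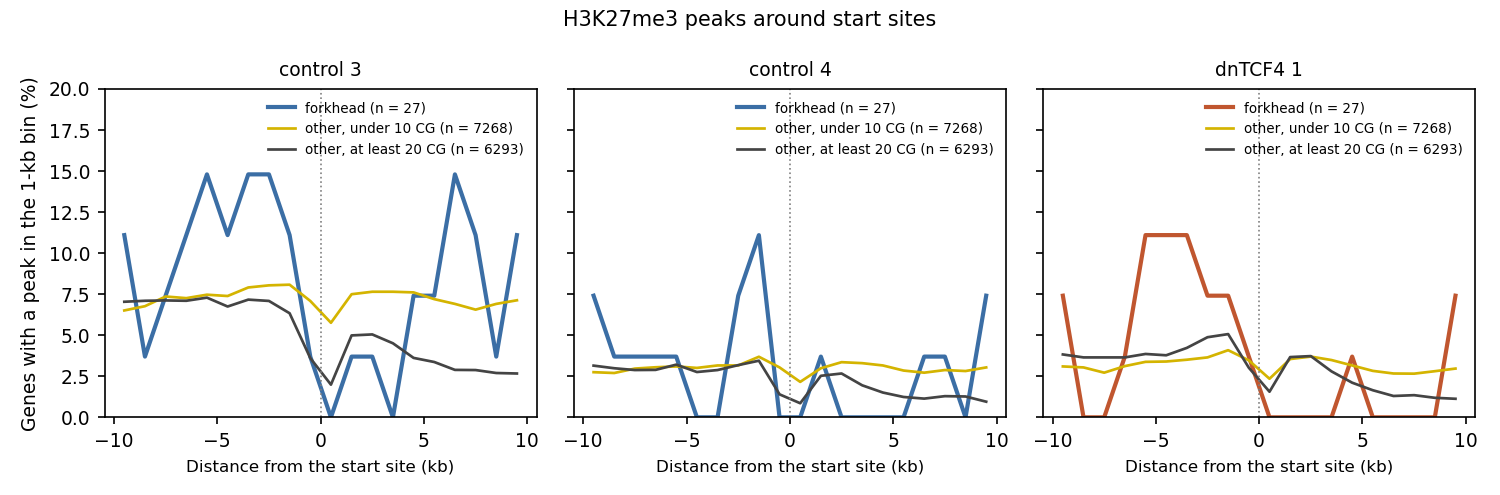
Percentage of genes with a peak (vertical axis) in each 1-kb bin from 10 kb before to 10 kb after the start site (horizontal axis), in control 3, control 4 and dnTCF4 1. Thick lines are the 27 forkhead genes with a start site, and thin lines are other genes with under 10 CG or at least 20 CG in the promoter. In the first 1 kb after the start site 0 of 27 forkhead genes had a peak. Among other genes with at least 20 CG, 1.99%, 0.858% and 1.56% had one in control 3, control 4 and dnTCF4 1. From 3 to 2 kb before it, 14.8%, 7.41% and 7.41% of forkhead genes had one (4, 2 and 2 genes). The same set of other genes gave 7.09%, 3.18% and 4.88%. In control 4 the bin from 4 to 3 kb before it held 0 forkhead genes. A single forkhead gene is 3.7% of a bin, so the 0 is not set apart, and no bin was tested.

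Peaks were nonetheless common in the wider surroundings of forkhead genes. Within 50 kb of the gene body, control 3 had a peak at 33 forkhead genes (78.6%) against 55.1% of other genes, and control 4 at 21 (50%) against 38.7%. In dnTCF4 1 the count was 26 (61.9%) against 41.7%, in dnTCF4 3 it was 11 (26.2%) against 17.1%, and in dnTCF4 4 it was 11 (26.2%) against 9.67%. Forkhead genes lay below other genes within 2 kb in 4 of these 5 libraries and above them within 50 kb in all 5, a description without a test. This contrast is not matched for gene length. Among genes under 10 kb, control 3 marked 4 of 25 forkhead genes against 13.5% of others. Control 4 marked 4 of these 25 against 7.48%, and dnTCF4 1 marked 6 against 8.32%. DnTCF4 3 marked 1 against 2.88%, and dnTCF4 4 marked 0 against 1.08%. At 50 kb or more, control 3 marked 1 of 8 against 32.3%. Neighbouring genes of either set can count the same peak, as Foxd2 and Foxe3 did with the control 3 peak at chr4:114899105-114899321. The median distance to the nearest peak in control 3 was 16.4 kb for the forkhead genes and 37.6 kb for other genes, and in dnTCF4 1 it was 23.2 and 78.7 kb. Several genes stood just outside the 2 kb limit in control 3, namely Foxn3 at 2.41 kb, Foxb2 at 2.51 kb, Foxi2 at 2.54 kb, Foxf1 at 2.76 kb and Foxd4 at 3.56 kb. Others were far from any peak. The nearest control 3 peak lay 916 kb from Foxa1, the luminal breast factor, 982 kb from Foxo1 and 289 kb from Foxo3, the O class mediators of insulin signalling.

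**Figure D5:**
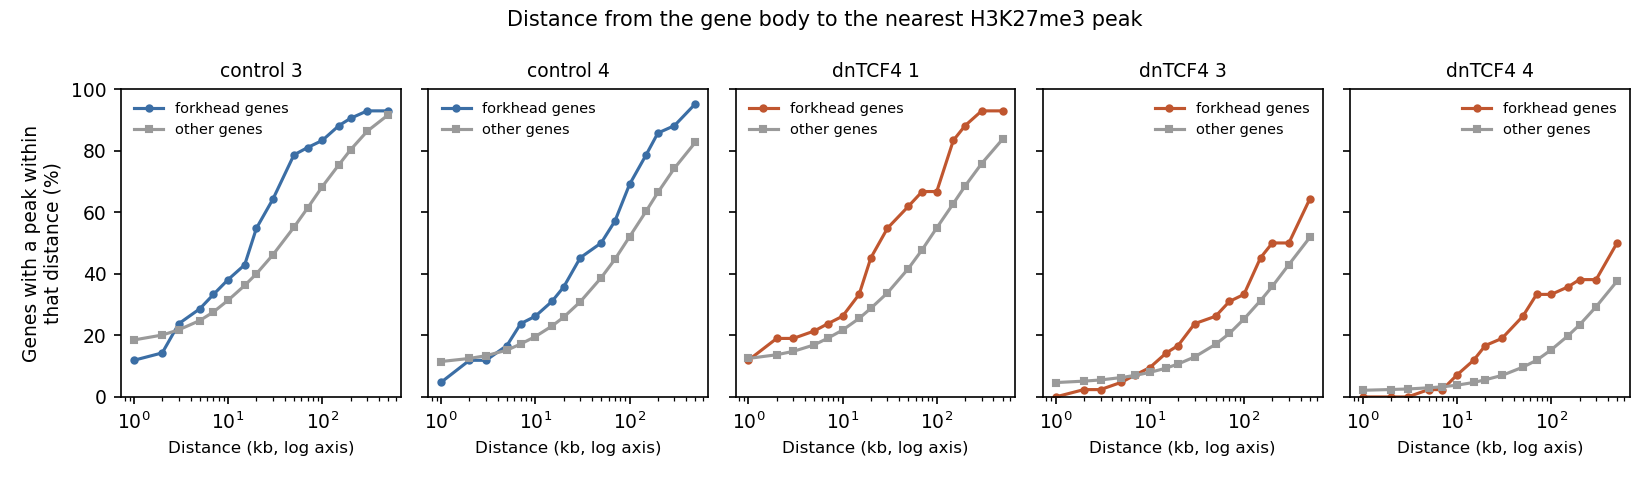
Percentage of genes with a peak within a given distance of the gene body (vertical axis), against that distance in kb on a log axis, for the 5 libraries with at least 1000 peaks. Coloured lines are the 42 forkhead genes and grey lines the other protein-coding genes. The coloured line lies above the grey one at 50 kb in each library, with 78.6% against 55.1% in control 3.

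Overlapping peaks of the 8 lists merge into 61441 regions, of which 3521 held peaks of at least 4 libraries. Such a recurrent region lay within 2 kb of 1 forkhead gene, Foxn4 (2.38%), against 4.97% of other genes. Within 50 kb one lay near 11 forkhead genes (26.2%), against 15.7% of other genes, and these were 30 distinct regions. Foxs1 had 9 of them and Foxn4 had 7. At Foxs1 they extended over Dusp15, a phosphatase gene, and Ttll9, a tubulin ligase-like gene. At Foxn4 the region at chr5:114297708-114300312, 23.3 kb away under the myosin gene Myo1h, had peaks of all 8 libraries. Foxa2 lay 13.0 kb from a region with peaks of 3 control and 3 dnTCF4 libraries, under the long noncoding RNA 9030622O22Rik. A nearer region, 5.21 kb from Foxa2, had peaks of 2 control and 2 dnTCF4 libraries. Foxe1, Foxl1, Foxd4 and Foxr1 had a region of 5 libraries 8.64, 10.2, 15.3 and 15.7 kb away. The region of Foxl1 also lay 22.0 kb from Foxc2.

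The genes of the forkhead clusters on chromosomes 8 and 13 were unmarked, 0 of 3 in each, where 21.4% of other genes were marked. All of these cluster genes are under 10 kb, and 14.5% of other genes of that length were marked. Counts of 0 of 3 are not set apart from such a share. Foxf1, Foxc2 and Foxl1, which act in mesenchyme and lymphatic vessels, lie within 46.3 kb on chromosome 8, and no library had a peak inside that span. Once 50 kb on either side was added, control 3, control 4 and dnTCF4 1 had 15, 9 and 6 peaks, dnTCF4 3 and dnTCF4 4 had 3 and 2, and control 1 had 1. Of the nearest protein-coding genes, Irf8 had a peak in 2 control libraries and 1 dnTCF4 library, and 1700018B08Rik in 2 and 3, while Mthfsd, inside the span, was unmarked. Foxq1, Foxf2 and Foxc1, the chromosome 13 cluster, span 252 kb, with 13, 2 and 3 peaks of control 3, control 4 and dnTCF4 1 between the genes and none within 2 kb of one. Their neighbours Exoc2 and Gmds were unmarked.

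Genes known to work with or under forkhead factors were also looked up, as lists named from textbook knowledge. Of 12 partners and companions of FOXA1 in luminal breast cells, 6 were marked in at least 1 library (50%, against 21.4% of the genes outside the forkhead family), while Foxa1 itself was not. The 21.4% is not matched for gene length, and it was 14.5% under 10 kb and 33.8% at 50 kb or more. The list was chosen with earlier results known, and the contrast was not tested. Grhl2, an epithelial transcription factor, was marked in 6 libraries, Greb1 and Tfap2c in 4 each and Gata3, the luminal regulator, in 3. Among FOXO target genes, G6pc, the phosphatase that releases glucose in the liver, was marked in 3 libraries. This single gene does not show how often that list was marked, and the share of the list is not given here. Of 10 FOXM1 targets 0 were marked, and of 19 Polycomb genes 1 (5.26%), beside the same 21.4%. Marker genes were read the same way, with the epithelial adhesion gene Epcam marked in all 8 libraries and Cdh1 in 3 (3 of 5 epithelial genes in all). No mesenchymal gene (0 of 5) and no housekeeping gene (0 of 5) was marked, in lists too short for a count of 0 to differ much from that share. Kdr was marked in 6 libraries (1 of 3 endothelial genes), and Cd3e and Ptprc in 4 and 3 (2 of 4 leukocyte genes).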

How the data were processed

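H3K27me3 was profiled by ChIPmentation, a chromatin immunoprecipitation in which a transposase adds the adapters. The submitters' processing notes name MACS2 2.1.2, Bowtie2 2.3.4.1, bedtools 2.28.0, SAMtools 1.2, Picard 2.20.2, cutadapt and Trim Galore, and the build mm10. Options, and any use of IgG in peak calling, were not given in the sources used here. For each library the authors deposited 1 list with 9 columns, so peaks were not pooled. Each deposited peak has a score, a fold enrichment (a ratio to background), a −log10 p and a −log10 q. The deposited score was 10 times −log10 q, truncated, except in 7 of 106385 peaks. These values were used only to describe or filter peaks within a list.

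Gene bodies came from RefSeq GRCm38.p6, whose gene table lacks strand, so start sites came from the promoter table. Libraries were compared gene by gene with two-sided Fisher's exact tests, adjusted by Benjamini-Hochberg over 21631 genes, and with exact permutation tests, adjusted over 4626 genes. Python 3.11.15, numpy 2.4.6, pandas 2.3.3 and scipy 1.17.1 were used, and the tests were tested on simulated data. Alternatives changed the extension (0 or 5 kb, or 2 kb around the start site), the overlap (500 bases), the −log10 q minimum (3), the list length, the libraries used and the replicate block. The members and lists were chosen with earlier results of these data known. Values in every library are given for genes marked in at least 3 libraries or differing by at least 2 between groups. Other genes are named if they neighbour a cluster, share a peak with a forkhead gene or belong to a list and were marked in at least 3 libraries. A result of the FOXO target list is not reported here. Genes under the recurrent regions, and the forkhead genes just outside 2 kb or far from peaks, were named after their values were seen.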

Additional observations from a re-analysis of the deposited data

Results flagged for a closer look

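Within groups of 4 libraries, 9 of the 16 sets of values examined held 1 library far from the other three. In 8 of them the others were all at 0, which always sets the remaining value apart, so the rate of about 1 in 20 that chance gives does not apply to them. DnTCF4 1 marked 8 forkhead genes, and the other dnTCF4 libraries marked 0 or 1. In 7 of these sets dnTCF4 1 had the only covered share above 0 among the dnTCF4 libraries. These were Foxe1 (8.58%), Foxi3 (6.74%), Foxb1 (6.64%), Foxa2 (4.13%), Foxn4 (3.85%), Foxo6 (1.67%) and Foxl2 (0.89%). Control 3 had the only covered share of Foxp2 above 0 among the control libraries, at 0.351%. DnTCF4 1 held 21492 peaks where the other dnTCF4 lists held 191 to 4885, and control 3 held 54070, the longest list, and the part of list length in these values was not tested.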

How the results depend on the processing

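The 9 forkhead genes marked in at least 1 library became 5 without an extension, 14 with 5 kb, 4 in the window of 2 kb around the start site (27 genes with one), 1 in lists cut to their 1838 strongest peaks (Foxn4) and 0 at a −log10 q of at least 3. Leaving out 1 library gave 7 to 9, with 7 without dnTCF4 1. The count in at least 2 libraries of both groups went from 0 to 2 with 5 kb (Foxn4 and Foxs1). The share of dnTCF4 minus control libraries marked at Foxn4 turned from -25 to 25 percentage points with 5 kb, which added dnTCF4 3 and dnTCF4 4. Calls between the groups were 0 wherever the tests could be run, with a lowest adjusted permutation p of 0.3947 to 1. With so few libraries, a gene alone at the smallest p cannot pass the adjustment, so these counts say nothing about stability. The lowest came from the 5 libraries with at least 1000 peaks, chosen after seeing the data. The replicate block, with a smallest p of 0.125, also gave 0 calls. Deviations of same-numbered libraries from their groups correlated at r = -0.77, 0.76, -0.25 and -0.50. Control 1 and control 2, both with short lists, each gave 0.76 with dnTCF4 2. With lists of such unequal length, these values cannot show whether the numbers pair the libraries. The start-site window gave no value for Foxe1, Foxb1 and Foxs1 or for the tests over all genes. Depth is unknown and limits every absent peak.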
